A study of Arabidopsis thaliana with 18 samples.

Results

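Tubulins, kinesins and microtubule-associated proteins were followed through sorted vascular cells of the Arabidopsis root. Members were taken by gene symbol from probe sets annotated with 1 gene: TUA, TUB, IQD, TRM or SP1L followed by digits, or symbols that begin with KINESIN, KICP or MAP65. This gave 40 genes among 13513 such probe sets, each read by 1 probe set: 2 alpha-tubulins, 5 beta-tubulins, 3 kinesin or kinesin-related genes, 4 SP1L genes, 14 TRM genes, 11 IQD genes, and TRM82. TRM82 matches by its letters alone, since its synonym in the reference gene table reads tRNA modification 82, and it is described apart. No MAP65 symbol was found among these probe sets.

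The 18 Affymetrix ATH1 arrays measured RNA of GFP-positive protoplasts isolated by flow sorting. All plants were wild type Columbia with an endoplasmic-reticulum-localised GFP under a cytokinin-inducible promoter, and the RNA went through 2 rounds of amplification. ARR15::GFP seedlings of 8 days had their roots cut into a basal piece (cambium), a middle piece (transition cambium) and an apical piece (procambium). With 6 days of growth and then 48 h on 100 nM BAP, a synthetic cytokinin, they gave 3 arrays each of BAP cambium, BAP transition cambium and BAP procambium. Without BAP they gave 3 arrays of untreated cambium, 2 of untreated transition cambium and 2 of untreated procambium. Another 2 arrays came from untreated ARR5::GFP seedlings of 6 days, whose lower roots were not cut into zones and whose reporter is placed by the labels in procambium and lateral root cap. The promoter is itself switched on by cytokinin, so the kinds of cells that passed the sort may differ between zones and treatments. In such bulk samples, fewer cells of a type and less RNA per cell cannot be told apart.

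Microtubules are hollow polymers of alpha- and beta-tubulin. In plant cells they guide cellulose synthesis at the cortex, mark the future division plane in the preprophase band, and build the spindle and then the phragmoplast, the array that lays down the new cell wall. Kinesins move along or take apart microtubules, SPIRAL1-like (SP1L) proteins bind them and influence the direction of cell growth, TRM proteins carry the TON1 recruiting motif that links division-plane proteins to cortical microtubules, and IQD proteins bind calmodulin and attach it to microtubules and membranes. A cambium is a sheet of dividing vascular stem cells, and a procambium is its primary precursor.

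Levels are the deposited log2 signals, in which 2.17 is the lowest value on any array, and log2 5 is used here as the level above which a gene counts as bright. On each array 47.2% to 49.9% of the probe sets were bright, and the lowest and highest correlations between arrays of 1 group were r = 0.963 and 0.989 over probe sets, a description in which probe sets are no replicates. Precision is limited by the number of arrays. Arrays of 1 group are biological replicates by their labels. Endogenous ARR15 averaged 6.59 in BAP cambium and 2.66 in untreated cambium. The cells were sorted by a reporter of this same gene, so its level is no independent check of the treatment. Its levels in the other pieces are not given here. Markers of cambium and procambium (CLE41, CLE44, LHW, MOL1 and PHV) were present: CLE41 was bright on 15 of 18 arrays, LHW, MOL1 and PHV on all, and CLE44 on 9, with none of these in procambium or in ARR5::GFP cells. PXY, WOX4 and ANT were not analysed here.

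Markers of other cells differed between the groups. The summed signal of the root cap and root hair genes RCPG, EXPA7 and EXPA18 was 13.96 to 14.24 on the log2 scale in ARR5::GFP cells, 10.4 to 11.6 in BAP procambium, and 4.42 to 4.76 in untreated procambium, where all 3 genes were below log2 5. BAP transition cambium spanned 4.44 to 7.72, and RCPG reached 7.65 on its replicate 2. The summed signal of the cell division genes AUR1, AUR2, AUR3 and CENH3 was 9.43 to 9.75 in BAP cambium against 6.49 to 8.34 in untreated cambium, and 9.33 to 9.72 in BAP transition cambium against 8.07 to 8.28 in untreated transition cambium. It was 7.44 to 8.47 in BAP procambium and 7.52 to 8.57 in untreated procambium. CENH3 was below log2 5 on every array. GUT2, a gene of xylan synthesis in secondary walls of xylem, stood at 10.31 and 7.92 in untreated transition cambium, against 6.63 and 5.99 in untreated procambium and 4.61 to 6.84 in untreated cambium. It was 6.99-fold higher in untreated transition cambium than in untreated procambium (adjusted p = 0.0158, lost without untreated transition cambium replicate 1 at 0.218) and 8.32-fold lower with BAP in transition cambium (adjusted p = 0.0154). Its part in the results on transition cambium given below, KINESIN-13A among them, was not tested.

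Of the 40 members, 29 reached log2 5 on at least 2 arrays and were tested: all 7 tubulins, all 3 kinesins, 3 of 4 SP1L genes, 7 of 14 TRM genes, 8 of 11 IQD genes, and TRM82. The level was reached on all 18 arrays by 16 members and on none by 9. Among the 11 not tested, IQD27 and TRM25 lay at the lowest value on every array, and TRM23 and TRM34 on all but 1. IQD24 was bright on 1 array, BAP transition cambium replicate 3 (5.93), and TRM24 on 1 array, untreated transition cambium replicate 1 (5.01). IQD16, SP1L5, TRM18, TRM22 and TRM33 were dim throughout, and the highest value among them was 4.69, that of SP1L5.

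The first comparison set the basal and middle pieces against the apical piece, to see how the microtubule genes differ along the root. Untreated cambium was lower than untreated procambium in TUB1, IQD19, IQD26, TRM26, SP1L4, KINESIN-13A and IQD30, and higher in SP1L2, TRM31, TRM19, KICP-02, TUA1 and IQD22. These 13 members, 6 higher and 7 lower, were 44.8% of the 29 tested. Of all 13202 probe sets 35.8% were called at a Benjamini-Hochberg adjusted p under 0.05 in limma, 18.4% higher and 17.4% lower. The median difference was -0.36 over the 29 members and -0.01 over all probe sets, on the log2 scale. Untreated transition cambium against untreated procambium gave 10 calls, 4 higher and 6 lower, or 34.5% of the members, beside 28.2% of all probe sets (15.6% higher and 12.5% lower). There the median difference was 0.32 over the members and 0.12 over all probe sets. Both comparisons use the same 2 procambium arrays. The second count was lower where untreated transition cambium replicate 1 or untreated procambium replicate 2 was left out, which leaves 1 array in that group. The calls over all probe sets were fewer in these runs too. With no filter on dim probe sets TRM19, TRM31 and IQD22 lost their calls in cambium and TRM20 in transition cambium. TRM31 also rests on dim arrays alone.

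With BAP the balance between higher and lower members was another. BAP cambium against BAP procambium gave 17 calls, 13 higher and 4 lower, or 58.6% of the members, beside 31.0% of all probe sets (16.3% higher and 14.7% lower). BAP transition cambium against BAP procambium gave 19 calls, 15 higher and 4 lower, or 65.5% beside 29.3% (15.7% higher and 13.5% lower). The median differences were 0.77 and 1.20 over the members, beside 0.08 and 0.04 over all probe sets. The comparisons of cambium with procambium in untreated and in BAP-treated roots share no array: 5 members were called higher in both (IQD22, TUA1, TRM19, TRM31 and SP1L2), 3 lower in both (TUB1, IQD19 and SP1L4), and KICP-02 in opposite directions. The 8 called alike were 61.5% of the untreated calls and 47.1% of the BAP calls, beside 47.5% and 54.7% over all probe sets. For transition cambium 3 were called higher in both (TRM19, TRM20 and IQD22), 3 lower in both (IQD19, TUB1 and TRM26), and KICP-02 in opposite directions. Those called alike were 60% of the untreated calls and 31.6% of the BAP calls, beside 50.8% and 49% over all probe sets. With no filter on dim probe sets IQD31, TRM15, TUB1 and TUB5 lost their calls in BAP cambium, and IQD31, TRM20, TUA6, TUB1 and TUB9 in BAP transition cambium. The TUB9 call was also lost with either centring, and the TUB1 call in BAP transition cambium with quantile normalization.

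Markers of other cells moved with these zone differences under BAP. The cell division genes summed to 9.43 to 9.75 in BAP cambium and 9.33 to 9.72 in BAP transition cambium, against 7.44 to 8.47 in BAP procambium. The root cap and root hair genes summed to 3.96 to 4.24 in BAP cambium and 4.44 to 7.72 in BAP transition cambium, against 10.4 to 11.6 in BAP procambium. The part of either list in the higher and lower members was not tested.

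**Figure D1:**
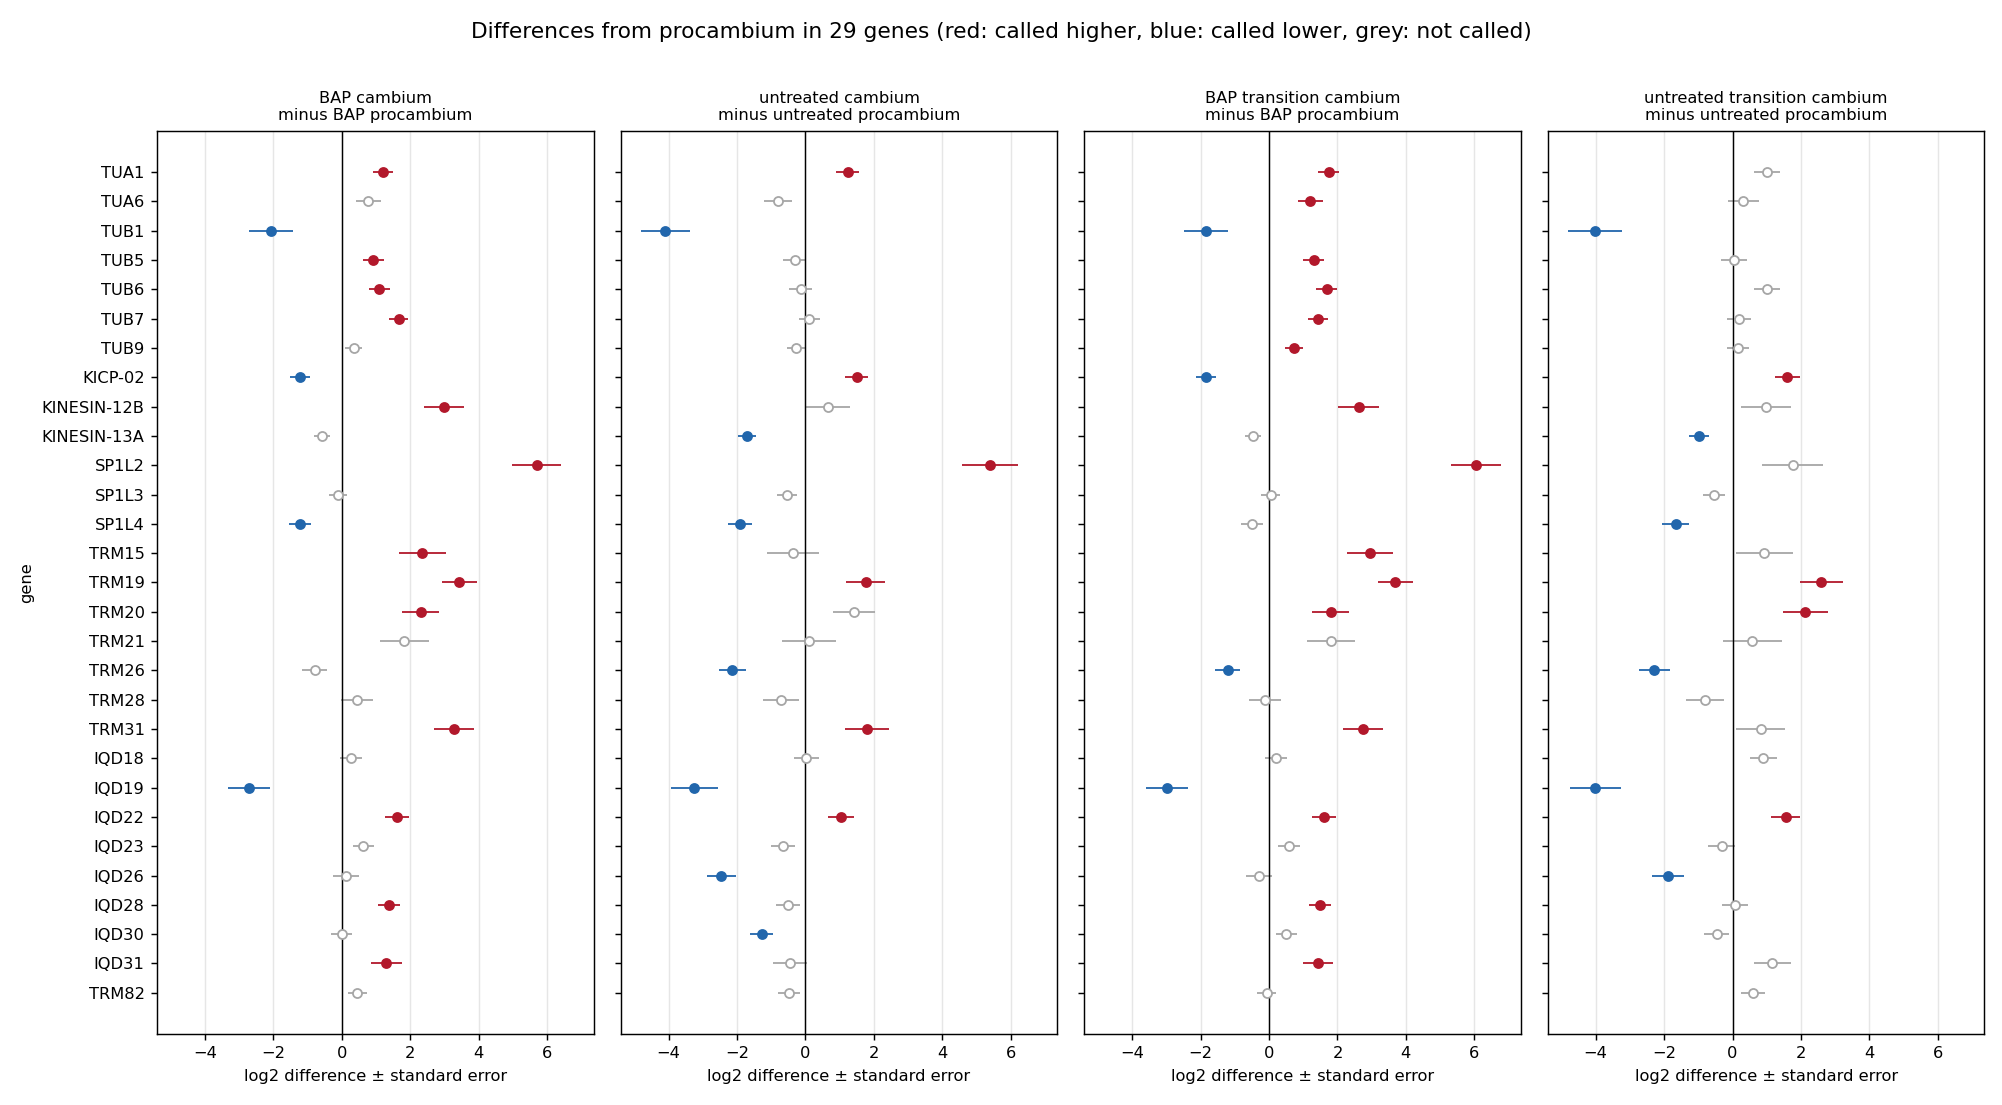
Log2 difference from procambium (points, with limma's standard error as bars) for each of the 29 tested genes, for BAP-treated and untreated cambium and transition cambium. Red points are genes called higher, blue ones called lower and grey ones not called; 13 genes are red in BAP cambium and 6 in untreated cambium, while TUB1 and IQD19 are blue in all 4 panels.

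Between the basal and the middle piece limma called no member. In untreated cambium against untreated transition cambium 0 of 29 were called, where 0.757% of all probe sets were (0.598% higher and 0.159% lower). An unadjusted p under 0.05 was reached by 8 of the 29 members and by 1228 of all 13202 probe sets. The nearest member was SP1L2, at 3.64 (standard error 0.81, adjusted p = 0.055), and with quantile normalization it was the 1 member called. In BAP cambium against BAP transition cambium 0 of 29 were called, beside 1.26% of all probe sets (0.598% higher and 0.667% lower). There 1 of the 29 members and 1321 of all 13202 probe sets had an unadjusted p under 0.05. The median differences were -0.42 and -0.12 over the members and -0.09 and -0.01 over all probe sets.

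The beta-tubulin gene TUB1 (AT1G75780) showed the widest zone difference among the tubulins. Its log2 levels were 5.15, 7.76 and 7.83 in untreated cambium and 5.83 and 8.18 in untreated transition cambium, against 11.06 and 10.96 in untreated procambium. Every array of the basal and middle pieces lay below both procambium arrays, and replicate 1 of each was the lowest. The gene was 17.1-fold lower in cambium (log2 -4.10, standard error 0.72, adjusted p = 0.000584) and 16.1-fold lower in transition cambium (log2 -4.01, standard error 0.79, adjusted p = 0.0019). Both calls held without any 1 array, but their size rests on replicate 1: without it the folds were 9.3 in cambium and 7.12 in transition cambium, and without replicate 2 of transition cambium 36.4.

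With BAP the zone difference of TUB1 was smaller in size. It stood at 9.25, 8.28 and 8.60 in BAP cambium and at 9.22, 8.97 and 8.62 in BAP transition cambium, against 10.74, 11.18 and 10.41 in BAP procambium. The groups did not overlap. TUB1 was 4.2-fold lower in BAP cambium (adjusted p = 0.0233), a call lost without any 1 of 4 of the 16 arrays (adjusted p up to 0.0866, without BAP cambium replicate 2). It was 3.59-fold lower in BAP transition cambium (adjusted p = 0.0428), lost without any 1 of 9 arrays (up to 0.131, without BAP transition cambium replicate 3). The BAP effect on TUB1 was 1.80 in cambium, 1.93 in transition cambium and -0.23 in procambium on the log2 scale, with adjusted p = 0.073, 0.11 and 0.89. The F test of unequal BAP effects in the 3 zones gave adjusted p = 0.29.

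TUB7 (AT2G29550), another beta-tubulin gene, rose with BAP in the basal and middle pieces. Its levels were 10.26, 10.65 and 10.35 in BAP cambium against 9.07, 8.65 and 8.98 in untreated cambium, and 9.86, 10.18 and 10.52 in BAP transition cambium against 9.24 and 8.72 in untreated transition cambium. All BAP arrays lay above all untreated arrays in both pieces. In procambium it stood at 8.40 to 9.39 with BAP against 8.84 and 8.74 without, and the groups overlapped. The increase was 2.86-fold in cambium (log2 1.52, standard error 0.28, adjusted p = 0.00259) and held without any 1 array. It was 2.31-fold in transition cambium (log2 1.21, standard error 0.31, adjusted p = 0.0264), and was lost without BAP transition cambium replicate 2 (adjusted p = 0.0615), BAP transition cambium replicate 3 (0.0933) or untreated transition cambium replicate 2 (0.228). In procambium the difference was -0.03 (adjusted p = 0.97), and the F test across the 3 zones gave adjusted p = 0.068. With BAP, TUB7 was also called higher in both pieces than in procambium, with means of 10.42 and 10.19 against 8.76. The groups did not overlap, and both calls held without any 1 array.

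TUA1 (AT1G64740), an alpha-tubulin gene known for its expression in pollen, was higher toward the base of the root with and without BAP. It stood at 7.23, 7.84 and 8.14 in BAP cambium and 8.33, 8.04 and 8.45 in BAP transition cambium, against 6.91, 6.52 and 6.17 in BAP procambium. Its levels were 7.60, 7.52 and 7.85 in untreated cambium and averaged 7.42 ± 0.59 (SD, n = 2) in untreated transition cambium, against 6.32 and 6.52 in untreated procambium. No array of procambium reached the lowest array of the other pieces under the same treatment. The gene was 2.3-fold higher in BAP cambium than in BAP procambium (adjusted p = 0.00707), 3.34-fold in BAP transition cambium (adjusted p = 0.000609) and 2.36-fold in untreated cambium (adjusted p = 0.011). The last call was lost without untreated procambium replicate 1 (adjusted p = 0.0683), and untreated transition cambium gave 1.00 (adjusted p = 0.057). Its BAP effects were 0.08 to 0.85 on the log2 scale, none of them called.

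TUA6, TUB5, TUB6 and TUB9 were bright on all arrays and were not called for zone without BAP. Their differences between untreated cambium and untreated procambium were -0.81, -0.31, -0.14 and -0.26, and those between untreated transition cambium and untreated procambium were 0.32, 0.05, 1.01 and 0.15. The TUB6 difference in transition cambium had adjusted p = 0.056 and was called with quantile normalization (log2 1.02). In BAP transition cambium all 4 were higher than in BAP procambium: TUA6 by 2.3-fold, TUB5 by 2.47-fold, TUB6 by 3.21-fold and TUB9 by 1.66-fold (adjusted p = 0.0221, 0.00516, 0.000857 and 0.0443). In BAP cambium TUB5 and TUB6 were higher by 1.88-fold and 2.14-fold (adjusted p = 0.0342 and 0.0131). The calls of TUB5 and TUB6 in BAP transition cambium held without any 1 array. That of TUA6 was lost without BAP transition cambium replicate 3 (adjusted p = 0.0891), BAP procambium replicate 1 (0.0796) or BAP procambium replicate 3 (0.0557), and that of TUB9 without any 1 of 9 arrays (up to 0.198, without BAP procambium replicate 3). In BAP cambium TUB5 was lost without any 1 of 4 arrays (up to 0.121, without BAP procambium replicate 3), and TUB6 without BAP cambium replicate 2 (0.0514) or BAP procambium replicate 3 (0.0616). Tubulin genes are similar in sequence, and whether their probe sets also read each other's transcripts was not tested.

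**Figure D2:**
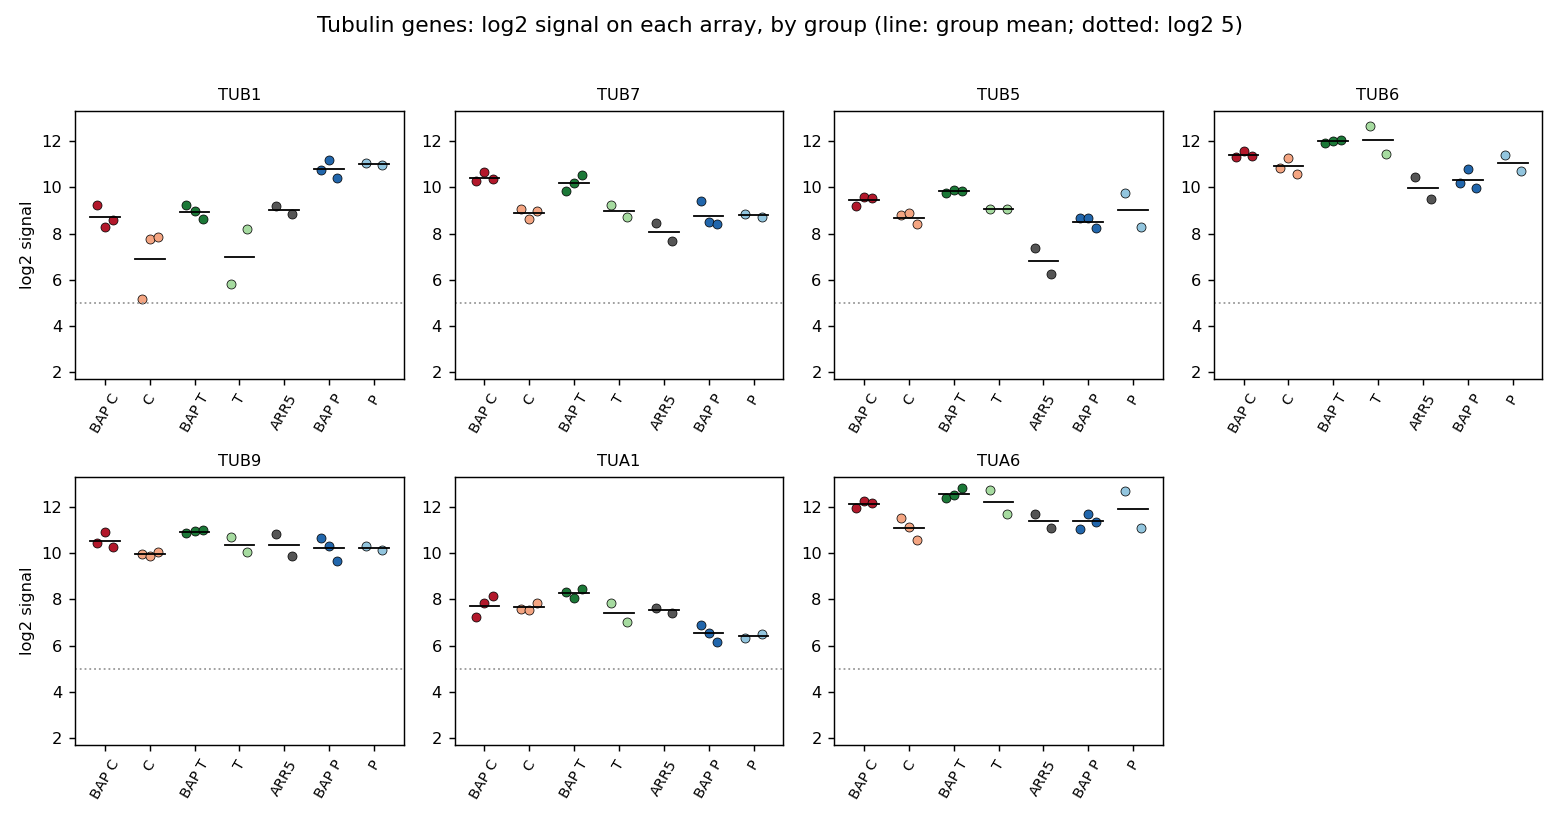
Log2 signal of the 7 tubulin genes on each array (points) with the group mean (line) in 7 groups, where C is cambium, T transition cambium, P procambium and ARR5 the ARR5::GFP cells. The dotted line marks log2 5; TUB1 is highest in the 5 procambium arrays, TUB7 is highest in BAP cambium and BAP transition cambium, and TUB5 is lowest in ARR5::GFP cells.

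KINESIN-12B (AT3G23670) encodes a phragmoplast kinesin that acts in cytokinesis. It was bright on 8 of 18 arrays, at 7.41, 7.39 and 7.15 in BAP cambium against 5.62, 2.87 and 4.17 in untreated cambium. In transition cambium it stood at 7.22, 6.91 and 6.68 with BAP against 5.59 and 3.51 without. Every BAP array of these pieces lay above every untreated one, and the untreated arrays were widely spread. In BAP procambium all 3 arrays were dim (4.04, 4.75 and 4.17), as were those of untreated procambium (3.36 and 3.78) and of ARR5::GFP cells (3.01 and 2.62). KINESIN-12B passed the filter only through the basal and middle pieces, so its differences from procambium are given as a description.

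KINESIN-12B rose with BAP by 8.54-fold in cambium (log2 3.09, standard error 0.59, adjusted p = 0.0031, 1 of 3 untreated arrays bright). The call held without any 1 array, while the fold was 5.36 without untreated cambium replicate 2 and 13.9 without replicate 1. In transition cambium it rose by 5.24-fold (log2 2.39, standard error 0.66, adjusted p = 0.0345, 1 of 2 untreated arrays bright). That call was lost without any 1 of 4 arrays (adjusted p up to 0.381, without untreated transition cambium replicate 2, where the fold was 2.55) and with no filter, and the fold was 10.8 without replicate 1. The F test across zones gave adjusted p = 0.23. Against BAP procambium it was at least 4.97-fold higher in BAP cambium (adjusted p = 0.00125) and at least 3.84-fold higher in BAP transition cambium (adjusted p = 0.00383), and both held without any 1 array. Among the cell division markers, AUR1, an Aurora kinase gene, was 7.19-fold higher with BAP in cambium (log2 2.85, adjusted p = 0.000284) and 4.21-fold higher in transition cambium (log2 2.07, adjusted p = 0.00784). AUR2 was 4.34-fold higher in cambium (adjusted p = 0.0282, lost without any 1 of 5 arrays) and differed by 0.74 in transition cambium (adjusted p = 0.56). AUR3 differed by -0.01 and -0.10 on the log2 scale (adjusted p = 0.998 and 0.947), and CENH3 was dim throughout. The part of the cell division markers in the KINESIN-12B result was not tested.

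KINESIN-13A (AT3G16630) encodes a microtubule-depolymerising kinesin that shapes the pits of secondary walls in xylem vessels. It was bright on all arrays, at 8.57, 8.69 and 8.45 in untreated cambium and 9.68 and 8.90 in untreated transition cambium, against 10.31 and 10.21 in untreated procambium. The procambium arrays were the higher ones without overlap. The gene was 3.24-fold lower in cambium (log2 -1.70, standard error 0.26, adjusted p = 0.000246), and this held without any 1 array. In transition cambium it was 1.96-fold lower (adjusted p = 0.0214), lost without untreated transition cambium replicate 2 (0.205) or untreated procambium replicate 1 (0.0792) or 2 (0.0619). With BAP the differences were -0.59 in cambium (adjusted p = 0.072) and -0.47 in transition cambium (adjusted p = 0.16). The first of these passed with each array centred on its median (log2 -0.65).

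KICP-02 (AT3G50240), a kinesin-related gene, changed its order between zones with treatment. In procambium it stood at 6.63, 6.46 and 6.21 with BAP against 3.12 and 3.53 without. In cambium it stood at 5.16, 5.36 and 5.08 with BAP against 4.97, 5.03 and 4.47 without, and in transition cambium at 4.35, 4.71 and 4.74 against 5.25 and 4.60. The BAP procambium arrays were the highest of all 18 and the untreated procambium arrays the lowest.

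KICP-02 rose with BAP in procambium by at least 2.7-fold (log2 3.11, standard error 0.33, adjusted p = 1.82e-05), and was not called in cambium (0.38, adjusted p = 0.41) or in transition cambium (-0.33, adjusted p = 0.61). The F test of unequal BAP effects gave adjusted p = 0.000954 and held without any 1 array (up to 0.00772). Cambium was 2.35-fold lower than procambium with BAP (adjusted p = 0.00478), and without BAP it was higher by 1.50 on the log2 scale (adjusted p = 0.00283). No fold is given without BAP, since 1 of 3 cambium arrays and neither procambium array was bright. Transition cambium was also called in opposite directions, with means of 4.60 against 6.43 in procambium with BAP and 4.93 against 3.32 without. Its untreated call was lost without untreated transition cambium replicate 1 (log2 1.28). In the same procambium arrays the root cap gene RCPG averaged 10.95 ± 0.58 with BAP (SD, n = 3) against 2.94 and 3.75 without, and its part in the KICP-02 result was not tested.

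SP1L2 (AT1G69230) had the largest differences of all members. It stood at 10.07, 9.85 and 10.22 in BAP cambium against 7.35, 8.02 and 7.31 in untreated cambium, and at 10.44, 10.01 and 10.80 in BAP transition cambium against 3.01 and 4.84 in untreated transition cambium. In procambium it stood at 6.19, 2.17 and 4.72 with BAP, and at the lowest value of 2.17 on both untreated arrays. The BAP arrays of cambium and transition cambium lay together, while the untreated arrays of these pieces lay apart from each other.

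SP1L2 was at least 5.9-fold higher in untreated cambium than in untreated procambium (log2 5.39, standard error 0.81, adjusted p = 0.000188), and in untreated transition cambium the difference was 1.76 (adjusted p = 0.16). With BAP it was 51.5-fold higher in cambium (adjusted p = 3.17e-05) and 66.5-fold in transition cambium (adjusted p = 2.64e-05), with 1 of 3 BAP procambium arrays bright and 1 at the lowest value. These sizes depend on the background model of the signals and on single arrays: without BAP procambium replicate 1 the folds were 97.1 and 125.6, and without replicate 2 they were 24.1 and 31.1. BAP raised it by at least 42.7-fold in transition cambium (log2 6.49, standard error 0.81, adjusted p = 0.000187), a call that held without any 1 array, with fitted differences of 5.58 and 7.41 without untreated transition cambium replicate 1 and 2. In cambium the increase was 5.6-fold (log2 2.49, adjusted p = 0.0329), lost without any 1 of 5 arrays (up to 0.093, without BAP cambium replicate 3) and with no filter. In procambium the difference was 2.19 (adjusted p = 0.089). The F test of unequal effects gave adjusted p = 0.0416 and was lost without any 1 of 13 of the 16 arrays (up to 0.203, without untreated transition cambium replicate 1) and with no filter.

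SP1L4 (AT5G15600) was lower in cambium than in procambium, and lower with BAP in each of these pieces. Its levels were 5.88, 6.07 and 6.20 in BAP cambium against 7.12, 7.30 and 7.29 in untreated cambium, and 7.88, 6.85 and 7.11 in BAP procambium against 8.89 and 9.42 in untreated procambium. The groups of each pair did not overlap. BAP lowered it by 3.66-fold in procambium (log2 -1.87, standard error 0.36, adjusted p = 0.00239), which held without any 1 array, and by 2.28-fold in cambium (log2 -1.19, standard error 0.32, adjusted p = 0.0226), lost without any 1 of 4 arrays (up to 0.0844, without BAP cambium replicate 1). In transition cambium, at 7.26, 6.23 and 6.84 with BAP against 7.30 and 7.69, the BAP effect was -0.72 (adjusted p = 0.24).

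Untreated cambium held 3.77-fold less SP1L4 signal than untreated procambium (adjusted p = 0.000928) and BAP cambium 2.34-fold less than BAP procambium (adjusted p = 0.00829), both without loss when any 1 array was left out. In untreated transition cambium it was 3.16-fold lower (adjusted p = 0.00596), lost without untreated transition cambium replicate 1 (0.0593) or untreated procambium replicate 2 (0.0566). With BAP, SP1L4 averaged 6.78 in transition cambium against 7.28 in procambium. The arrays of these groups overlapped, and the gene was not called there. SP1L3 was bright on every array, with group means of 10.01 to 11.28, and was called in none of the zone or BAP comparisons.

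**Figure D3:**
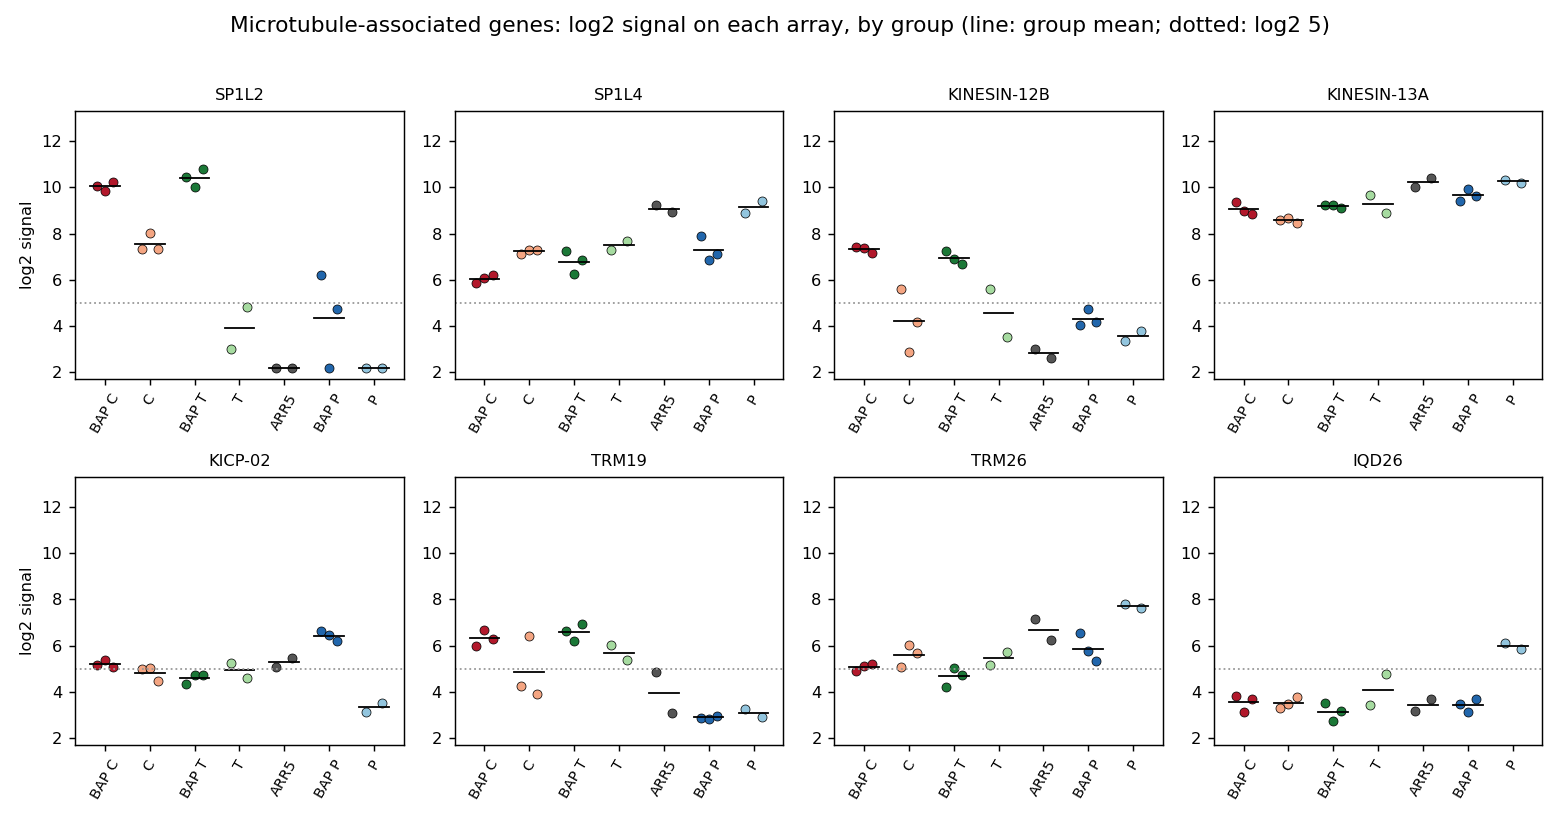
Log2 signal of 8 kinesin, SP1L, TRM and IQD genes on each array (points) with the group mean (line), with groups as C cambium, T transition cambium, P procambium and ARR5 the ARR5::GFP cells. The dotted line marks log2 5; SP1L2 lies near 10 in both BAP groups at the left and at 2.17 in untreated procambium, and KICP-02 is highest in BAP procambium.

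Among the TRM genes, TRM19 (AT3G53540) was bright on 9 of 18 arrays, all from the basal and middle pieces, and dim on every procambium array. TRM19 passed the filter only through the basal and middle pieces, so its differences from procambium are given as a description. It stood at 5.97, 6.69 and 6.30 in BAP cambium and 6.62, 6.19 and 6.92 in BAP transition cambium, against 2.87, 2.84 and 2.96 in BAP procambium. Untreated cambium had 4.24, 6.42 and 3.91 and untreated transition cambium 6.03 and 5.36, against 3.26 and 2.93 in untreated procambium. The arrays of the basal and middle pieces lay above those of procambium in each case, with a wide spread in untreated cambium. TRM19 was at least 2.5-fold higher in BAP cambium (adjusted p = 0.000128) and at least 2.99-fold higher in BAP transition cambium (adjusted p = 9.32e-05) than in BAP procambium, and both calls held without any 1 array.

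Without BAP, TRM19 was at least 1.62-fold higher in transition cambium (adjusted p = 0.00698), lost without untreated transition cambium replicate 1 (0.0691). In untreated cambium, with 1 of 3 arrays bright, it was higher by 1.76 on the log2 scale (adjusted p = 0.0266), lost without untreated cambium replicate 2 (log2 0.98, adjusted p = 0.0702) or untreated procambium replicate 1 (0.0694) or 2 (0.128).

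TRM15, TRM20 and TRM31 were also higher in BAP cambium than in BAP procambium, where all 3 were dim. TRM15 was at least 2.8-fold higher (adjusted p = 0.0161), TRM20 at least 1.37-fold (adjusted p = 0.00473) and TRM31 at least 1.42-fold with 2 of 3 cambium arrays bright (adjusted p = 0.000561). TRM31 was bright on 4 arrays of the series, all of BAP cambium or BAP transition cambium. It passed the filter only through these groups, so its differences from procambium are given as a description. The same holds for TRM20, which passed only through the basal and middle pieces. The TRM15 call was lost without BAP cambium replicate 2 (0.057) or BAP procambium replicate 1 (0.0787), and the other 2 held without any 1 array. In BAP transition cambium TRM15 was at least 4.24-fold higher (adjusted p = 0.00462), while TRM20 (log2 1.80, adjusted p = 0.022) and TRM31 (log2 2.76, adjusted p = 0.00256, and 3.39 without BAP transition cambium replicate 2) averaged under log2 5 and get no fold. TRM20 was lost there without any 1 of 4 arrays (up to 0.0949, without BAP procambium replicate 1). Untreated, TRM20 was at least 1.32-fold higher in transition cambium (adjusted p = 0.0278), lost without untreated transition cambium replicate 1 (0.178) or untreated procambium replicate 2 (0.219). Its fitted difference there was 2.13, and 1.45 to 2.82 without 1 procambium array. TRM31 was higher by 1.80 in untreated cambium, where every array of both groups was dim (adjusted p = 0.0437, lost without any 1 of 8 arrays, up to 0.134 without untreated cambium replicate 3). That call was also lost with either centring of the arrays (1.62 and 1.74).

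TRM26 (AT2G17550) went the other way. It stood at 5.07, 6.03 and 5.67 in untreated cambium and 5.17 and 5.72 in untreated transition cambium, against 7.82 and 7.63 in untreated procambium. Both procambium arrays were above all others. The gene was 4.39-fold lower in cambium (log2 -2.13, standard error 0.40, adjusted p = 0.00103) and 4.86-fold lower in transition cambium (log2 -2.28, standard error 0.44, adjusted p = 0.00174), and both held without any 1 array. In BAP procambium, at 6.53, 5.75 and 5.33, it was 3.62-fold lower than in untreated procambium (log2 -1.86, standard error 0.40, adjusted p = 0.00607), a call lost without untreated procambium replicate 1 (0.0532). In BAP transition cambium, at 4.19, 5.05 and 4.74, it was 2.31-fold lower than in BAP procambium (adjusted p = 0.0204), lost without BAP transition cambium replicate 1 (0.0907) or 3 (0.0505) or BAP procambium replicate 1 (0.0951). BAP cambium gave -0.80 (adjusted p = 0.11). TRM21 and TRM28 were called in no zone or BAP comparison.

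The IQD genes divided by direction. IQD19 (AT4G14750) was bright on 4 of 5 procambium arrays and dim in every array of the basal and middle pieces. Among the ARR15::GFP arrays it passed the filter only through procambium. Its differences from the basal and middle pieces are therefore given as a description. It stood at 2.86, 2.89 and 2.90 in BAP cambium and 2.43, 3.03 and 2.40 in BAP transition cambium, against 6.30, 6.23 and 4.31 in BAP procambium. Untreated cambium had 2.44, 2.44 and 4.60 and untreated transition cambium 2.40 on both arrays, against 5.73 and 7.09 in untreated procambium. Under each treatment no array of the basal or middle pieces reached those of procambium. It was at least 1.53-fold lower in BAP cambium (adjusted p = 0.00336) and in BAP transition cambium (adjusted p = 0.0021), and at least 2.66-fold lower in untreated cambium (adjusted p = 0.00228) and untreated transition cambium (adjusted p = 0.00142). All 4 calls held without any 1 array, while the fitted differences moved. That of untreated cambium, -3.25, was -2.57 without untreated procambium replicate 2 and -3.97 without untreated cambium replicate 3. That of untreated transition cambium, -4.01, spanned -3.33 to -4.69 without 1 procambium array. Without BAP procambium replicate 3 the BAP differences of -2.73 and -2.99 were -3.38 and -3.64.

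IQD26 (AT3G16490) was bright on 2 arrays of the series, those of untreated procambium, at 6.09 and 5.87. It passed the filter only through that group, so its differences from untreated procambium are given as a description. BAP procambium had 3.45, 3.14 and 3.70, and the highest value on any other array was 4.76, in untreated transition cambium replicate 2. It was at least 1.97-fold lower with BAP in procambium (log2 -2.55, standard error 0.43, adjusted p = 0.000916) and at least 1.97-fold lower in untreated cambium than in untreated procambium (log2 -2.45, adjusted p = 0.000561), both held without any 1 array. In untreated transition cambium it was also at least 1.97-fold lower (adjusted p = 0.0081), lost without replicate 1 of that group (log2 -1.22 in place of -1.89, adjusted p = 0.117), and -2.56 without replicate 2. The F test of unequal BAP effects gave adjusted p = 0.0313, lost without any 1 of 7 arrays (up to 0.107, without untreated procambium replicate 1). The BAP effect was 0.03 in cambium and -0.95 in transition cambium (adjusted p = 0.98 and 0.19).

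IQD22, IQD28 and IQD31 were bright on all arrays and higher toward the base with BAP. In BAP cambium they were 3.05-fold, 2.59-fold and 2.47-fold higher than in BAP procambium (adjusted p = 0.00213, 0.00371 and 0.036), and in BAP transition cambium 3.04-fold, 2.81-fold and 2.69-fold (adjusted p = 0.00263, 0.00252 and 0.0246). The calls of IQD22 and IQD28 held without any 1 array. That of IQD31 was lost in cambium without any 1 of 5 arrays (up to 0.171, without BAP procambium replicate 1) and in transition cambium without BAP transition cambium replicate 2 (0.0831) or 3 (0.0538) or BAP procambium replicate 1 (0.116). IQD22 was also 2.93-fold higher in untreated transition cambium (adjusted p = 0.0128), lost without replicate 1 of that group (0.0944) or untreated procambium replicate 2 (0.0861). In untreated cambium it was 2.04-fold higher (adjusted p = 0.0476), and this was lost without any 1 of 12 arrays (up to 0.235, without untreated procambium replicate 2). IQD30 was 2.42-fold lower in untreated cambium than in untreated procambium (adjusted p = 0.00937), lost without untreated procambium replicate 1 (0.0548).

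The next question was how cytokinin treatment changed these genes within each piece of root. In cambium KINESIN-12B, SP1L2, IQD31, TRM82, TUB7, IQD18 and IQD22 were higher with BAP and SP1L4 was lower. These 8 members, 7 higher and 1 lower, were 27.6% of the 29 tested, beside 14.9% of all probe sets (7.71% higher and 7.15% lower). In transition cambium 3 were higher and 0 lower (KINESIN-12B, SP1L2 and TUB7), or 10.3% beside 9.40% (4.70% higher and 4.70% lower). In procambium 1 was higher (KICP-02) and 6 were lower (IQD26, SP1L4, TRM26, IQD23, IQD30 and IQD28), or 24.1% beside 14.1% (7.61% higher and 6.44% lower). The median BAP effects over the members were 0.77, 0.37 and -0.23 in cambium, transition cambium and procambium, beside 0.02, -0.03 and -0.01 over all probe sets. With no filter on dim probe sets IQD22 and SP1L2 lost their calls in cambium, KINESIN-12B in transition cambium and IQD28 in procambium.

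The 3 members that rose in transition cambium also rose in cambium. They were 37.5% of the 8 cambium calls and 100% of the 3 transition cambium calls, beside 33.9% and 53.6% over all probe sets. These comparisons share no array. SP1L4 was lower in cambium and in procambium, or 12.5% and 14.3% of the calls there, beside 18% and 19.1% over all probe sets. Of the 3 calls in transition cambium and the 7 in procambium, 0 members were shared. Over all probe sets 29.7% of the transition cambium calls and 19.8% of the procambium calls were shared in direction. A BAP effect that differed between the zones by limma's F test was called for 3 members, KICP-02, SP1L2 and IQD26, or 10.3% beside 7.57% of all probe sets. In the same test IQD28 was called as well with each array centred on its median (adjusted p = 0.0347). It also passed with quantile normalization (0.0436) and with centring on the kept probe sets (0.043). A call in one zone and not in another is otherwise no test of a difference between them. The labels give no date or batch, so BAP and the batch of plants cannot be told apart.

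**Figure D4:**
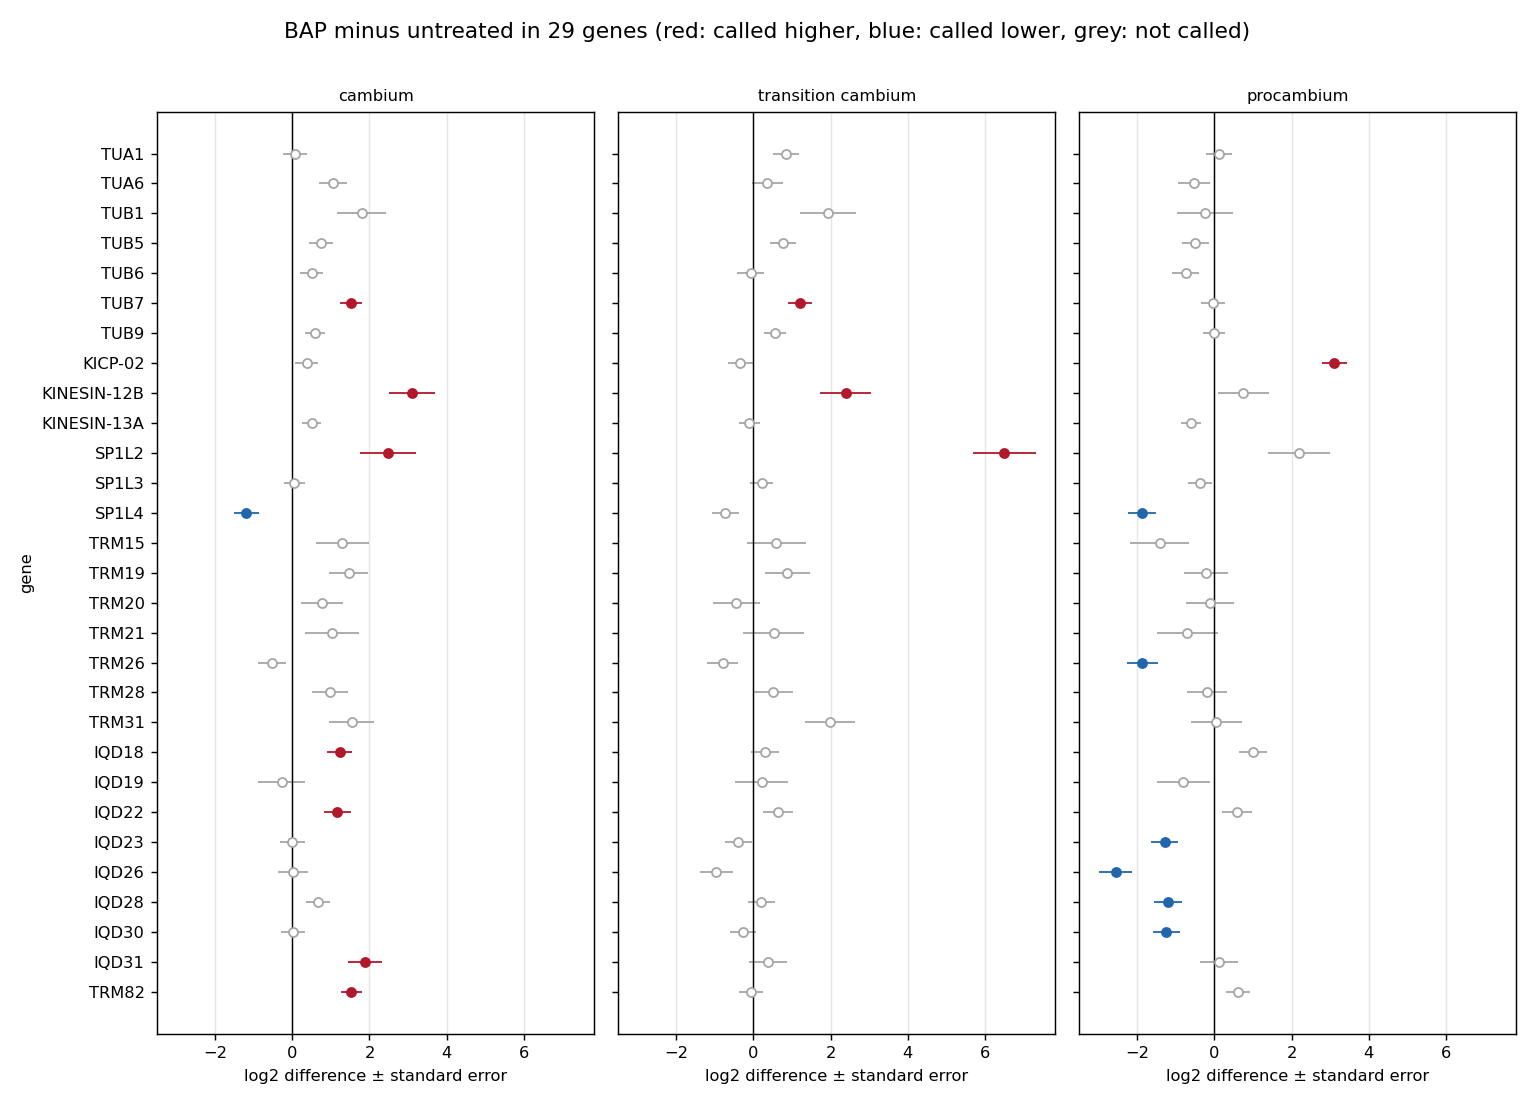
Log2 difference between BAP-treated and untreated arrays (points, with limma's standard error as bars) of the 29 tested genes in cambium, transition cambium and procambium. Red points are genes called higher with BAP, blue ones called lower and grey ones not called; 7 genes are red in cambium and 6 are blue in procambium.

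Among the IQD genes, BAP raised IQD31 3.71-fold in cambium, to 9.33, 9.40 and 8.97 against 7.30, 8.03 and 6.69 in untreated cambium. The groups did not overlap (log2 1.89, standard error 0.44, adjusted p = 0.0111, lost without untreated cambium replicate 3 at 0.0504). IQD22 was 2.25-fold higher (adjusted p = 0.0321, lost without any 1 of 4 arrays, up to 0.115 without BAP cambium replicate 3). IQD18 was higher by 1.23 on the log2 scale with a mean below log2 5 in both groups (adjusted p = 0.0193, lost without any 1 of 4 arrays, up to 0.076 without BAP cambium replicate 3). It was bright on 2 arrays, BAP cambium replicate 3 and BAP procambium replicate 2, and passed the filter only through them. Its BAP effect is therefore given as a description.

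In procambium BAP lowered IQD23 by 2.43-fold, IQD30 by 2.36-fold and IQD28 by 2.29-fold (adjusted p = 0.0251, 0.0243 and 0.0339). IQD23 was lost without BAP procambium replicate 2 (0.0624) or 3 (0.0679) or untreated procambium replicate 1 (0.274). IQD30 was lost without BAP procambium replicate 3 (0.0956) or untreated procambium replicate 1 (0.124) or 2 (0.0763), and IQD28 without any 1 of 4 arrays (up to 0.134, without untreated procambium replicate 2). The root cap and root hair markers given above also differed between BAP procambium and untreated procambium, and their part in these results was not tested.

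TRM82 (AT1G03110), whose name refers to tRNA modification, was bright on all arrays. It was 2.89-fold higher with BAP in cambium, at 7.98, 7.54 and 7.96 against 6.61, 6.43 and 5.83 in untreated cambium. The groups did not overlap (log2 1.53, standard error 0.28, adjusted p = 0.00232), and the call held without any 1 array. It was not called for BAP in transition cambium or procambium, nor between any zones.

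The ARR5::GFP cells, from younger and undissected roots with another reporter, were compared with both procambium groups. Each of these comparisons uses the same 2 ARR5::GFP arrays. Reporter, age and dissection differ together, and against BAP procambium the BAP treatment differs too, so these cannot be told apart. TRM21 was higher and TUB5 and TRM82 were lower in ARR5::GFP cells than in either procambium. Against BAP procambium 9 members were called, 4 higher and 5 lower, or 31.0% of the 29 beside 31.4% of all 13465 probe sets tested there (13.6% higher and 17.8% lower). With each array centred on its median over all probe sets, 5 were higher and 3 lower. Over all probe sets that run called 2184 higher and 2080 lower, in place of 1832 and 2392. Against untreated procambium 9 were called, 4 higher and 5 lower, or 31.0% beside 31.5% (14.0% higher and 17.5% lower). The median differences were 0.02 and -0.08 over the members and -0.04 and -0.13 over all probe sets. The count against BAP procambium fell to 5 without BAP procambium replicate 3, while the calls over all probe sets fell from 4224 to 3732. It was also lower without either ARR5::GFP replicate. The count against untreated procambium was lower without untreated procambium replicate 2. Each of these last runs leaves 1 array in a group, and in each the calls over all probe sets were fewer too.

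TRM21 (AT5G43880) stood at 8.24 and 9.13 in ARR5::GFP cells, against 3.66, 5.98 and 6.09 in BAP procambium and 7.11 and 4.77 in untreated procambium. It was 10.9-fold higher than in BAP procambium (log2 3.44, standard error 0.77, adjusted p = 0.00326, 2 of 3 arrays bright) and 6.7-fold higher than in untreated procambium (log2 2.74, standard error 0.85, adjusted p = 0.0211, 1 of 2 arrays bright). The groups did not overlap, though both procambium groups were widely spread. The first call was lost without ARR5::GFP replicate 2 (0.0514), and its fold was 6.27 without BAP procambium replicate 1. The second was lost with no filter, without that ARR5::GFP array (0.146) or without untreated procambium replicate 2 (0.263), where the fold was 2.98, and the fold was 15.1 without replicate 1.

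TUB5 (AT1G20010) stood at 7.38 and 6.24 in ARR5::GFP cells, against 8.67, 8.66 and 8.23 in BAP procambium and 9.75 and 8.27 in untreated procambium. It was 3.27-fold lower than in BAP procambium (adjusted p = 0.00342, lost without ARR5::GFP replicate 2 at 0.0798) and 4.59-fold lower than in untreated procambium (adjusted p = 0.00101, held without any 1 array, with folds of 2.75 and 7.65 without untreated procambium replicate 1 and 2). TRM82 was 3.87-fold and 2.55-fold lower (adjusted p = 0.000256 and 0.00708, the second lost without untreated procambium replicate 1 at 0.0667). SP1L3 was 1.86-fold and 2.41-fold lower (adjusted p = 0.0333 and 0.00807), lost without any 1 of 4 of the 18 arrays (up to 0.121, without ARR5::GFP replicate 2) in the comparison with BAP procambium, and without untreated procambium replicate 2 (0.142) in the other. The first of these calls was also lost with no filter or either centring.

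TUA1 was 1.99-fold higher in ARR5::GFP cells than in BAP procambium and 2.15-fold higher than in untreated procambium (adjusted p = 0.0354 and 0.0318), each lost without any 1 of 4 arrays (up to 0.14 without ARR5::GFP replicate 1, and up to 0.117 without untreated procambium replicate 1). KICP-02 lay between both procambium groups, at 5.06 and 5.48. It was 2.24-fold lower than in BAP procambium (adjusted p = 0.0139, lost without ARR5::GFP replicate 1 at 0.0854) and at least 1.21-fold higher than in untreated procambium (adjusted p = 0.000732). SP1L4 was 3.47-fold higher than in BAP procambium (adjusted p = 0.0013) and differed from untreated procambium by -0.08 (adjusted p = 0.92). IQD26 was at least 1.97-fold lower than in untreated procambium (adjusted p = 0.000615) and differed from BAP procambium by 0.01, where both groups were dim.

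Of the remaining calls, IQD30 was 1.94-fold higher than in BAP procambium (adjusted p = 0.0396, lost without any 1 of 6 arrays, up to 0.146 without BAP procambium replicate 3, and with quantile normalization). SP1L2 differed from BAP procambium by -2.19 with overlapping groups (adjusted p = 0.0437, lost without any 1 of 14 arrays, up to 0.186 without BAP procambium replicate 1 at log2 -1.28, and -3.29 without replicate 2). That call was also lost with no filter or with each array centred on its median. IQD22 was 2.91-fold higher and IQD28 2.55-fold lower than in untreated procambium (adjusted p = 0.00931 and 0.0159). IQD22 was lost without untreated procambium replicate 2 (0.0789), and IQD28 without that array (0.0838) or ARR5::GFP replicate 2 (0.123). The root cap and root hair markers were higher in ARR5::GFP cells than in both procambium groups, as given above, and their part in these results was not tested.

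**Figure D5:**
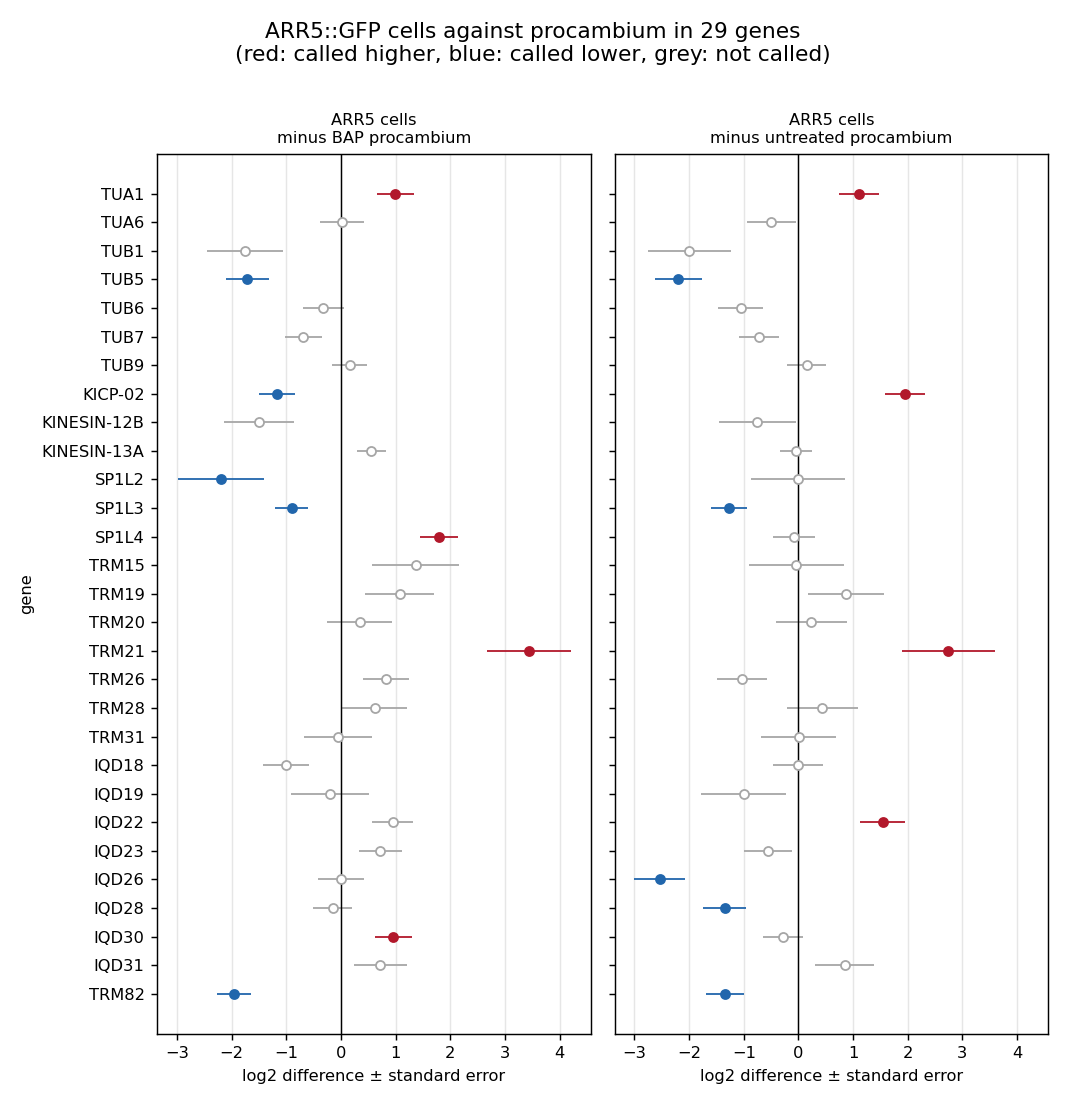
Log2 difference of ARR5::GFP cells from BAP procambium (left) and from untreated procambium (right), as points with limma's standard error, for the 29 tested genes. Red points are genes called higher in ARR5::GFP cells, blue ones called lower and grey ones not called; TRM21 and TUA1 are red and TUB5, SP1L3 and TRM82 blue in both panels, and KICP-02 is blue at the left and red at the right.

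Of the other microtubule genes looked for, 5 had a probe set of their own. They were SPR1, the founding gene of the SP1L family, TON1B, a division-plane protein that TRM proteins recruit, WDL3, a relative of a microtubule-binding protein of cell elongation, and POR and PFI, cofactors that fold tubulin. All 5 were bright on all 18 arrays. TON1B was 2.15-fold higher with BAP in cambium (adjusted p = 0.0389, lost without any 1 of 5 arrays, up to 0.126 without untreated cambium replicate 1) and 2.54-fold lower in untreated cambium than in untreated procambium (adjusted p = 0.012, lost without untreated procambium replicate 1 at 0.0941). SPR1 was 2.07-fold lower in ARR5::GFP cells than in untreated procambium (adjusted p = 0.00971, lost without 2 of 18 arrays, up to 0.0849 without untreated procambium replicate 2). None of the 5 was called in the other comparisons.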

How the data were processed

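RNA of sorted GFP-positive protoplasts was measured on 18 arrays in 7 groups of 2 or 3. The deposited values are log2 signals, made by the authors with GCRMA per the submitters' processing notes. Which version, and which arrays were normalized jointly, is not given in the sources used here. GCRMA places dim probe sets near a common floor, so a fold against a dim group depends on its background model. Where the dimmer of 2 groups had no array at log2 5 or more, the brighter mean was set against log2 5 and written as at least N-fold, with no fold where that is under 1.

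Groups come from the labels. The title of 1 untreated procambium array holds both a 3 and a replicate 2; the 2 was used. Differences were fitted with limma 3.58.1 in R 4.3.3 (a mean per group, moderated variance with an intensity trend) to probe sets with at least 2 arrays at log2 5: 13202 over the 16 ARR15::GFP arrays (10 residual degrees of freedom), and 13465 over all 18 arrays for ARR5::GFP cells (11). Adjusted p-values are Benjamini-Hochberg over all of these, and calls were made at 0.05. Over the 16 ARR15::GFP arrays, KINESIN-12B, TRM19 and TRM20 passed the filter only through the basal and middle pieces. IQD19 passed only through procambium, IQD26 only through untreated procambium, and IQD18 and TRM31 only through BAP arrays. Their differences from groups in which all their arrays were dim are descriptions. Control probe sets (64) stayed out, and of the others 503 with several genes and 8730 not listed in the annotation named no gene. The fit was tested on simulated data.

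The members and lists were chosen with earlier results of these data known. The text names all tested members. Markers and other microtubule genes were looked for from longer lists of names, and only those with a probe set annotated with 1 gene could be used. The marker sums rest on such genes alone, and loci are from the reference gene table. Alternatives were 2 ways of centring (the one on kept probe sets chosen after seeing the data), quantile normalization, no filter, a replicate block and each array left out. The same replicate number does not mark a shared sample in the labels, and the arrays of 1 number did not deviate together.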

Additional observations from a re-analysis of the deposited data

Results flagged for a closer look

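The BAP effect differed between the 3 zones by limma's F test for 3 of the 29 genes tested. KICP-02 (adjusted p = 0.000954) had BAP effects of 0.38 in cambium, -0.33 in transition cambium and 3.11 in procambium on the log2 scale. SP1L2 (adjusted p = 0.0416) had effects of 2.49, 6.49 and 2.19, and IQD26 (adjusted p = 0.0313) of 0.03, -0.95 and -2.55. SP1L2 was dim on every untreated array of transition cambium and procambium, so its effects there depend on the floor of the signals. With no filter its F test gave adjusted p = 0.128. IQD26 passed the filter on dim probe sets only through untreated procambium, the group where it was high, so its value is a description. With the replicate number as a block, KICP-02 was called and SP1L2 and IQD26 were not. With either centring and with quantile normalization, IQD28 was called in addition to these 3 genes.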

How the results depend on the processing

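Of 98 calls of single members in 348 tests, 49 held without any 1 array and 49 were lost without at least 1, and no called value changed sign under any alternative run. The number of members called, with each array left out in turn, spanned 10 to 13 for untreated cambium against procambium, 4 to 12 for untreated transition cambium against procambium, 0 to 1 for untreated cambium against transition cambium, 12 to 18 and 13 to 20 for the same pieces against procambium with BAP, and 0 throughout for BAP cambium against transition cambium. For the BAP effect it spanned 3 to 10 in cambium (5 without any 1 BAP cambium array or untreated replicate 1, and 3 without untreated replicate 3), 1 to 5 in transition cambium (1 without BAP replicate 3, and 5 without untreated cambium replicate 1) and 3 to 7 in procambium (3 without untreated replicate 1), and for the F test 1 to 4 (1 without BAP cambium replicate 1 or 3, untreated cambium replicate 1 or untreated procambium replicate 1). For ARR5::GFP cells it spanned 4 to 10 against BAP procambium and 4 to 11 against untreated procambium.

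With the replicate block the F test called 1 member, against 3 without it; the other counts were within 1.5 times, at 11, 10, 0, 16, 17 and 0 for the zones, 7, 3 and 5 for BAP in cambium, transition cambium and procambium, and 6 and 9 for ARR5::GFP cells against BAP and untreated procambium. The labels' numbers do not pair the arrays: deviations of same-numbered arrays correlated at -0.52 to 0.28 over 36 pairs (median -0.04), and 2 of 16 arrays correlated best with their own number. Untreated cambium against transition cambium gave 1 call with quantile normalization and 1 with centring on the kept probe sets, SP1L2 in both. Of the 348 tests, 339 kept their side of the threshold with centring on each array's median, 339 with centring on the kept probe sets, 342 with quantile normalization, 327 with no filter and 335 with the block. Centring on each array's median moved the median of all probe sets from -0.01 to -0.19 for untreated cambium against procambium, with 2007 higher and 2855 lower calls against 2424 and 2296, and from 0.12 to -0.09 for untreated transition cambium, with 1598 and 2113 against 2066 and 1654; the members split 4 higher and 7 lower, and 4 and 6. Each gene has 1 probe set, so the alternative of other probe sets gave no value. The cause of these shifts was not tested.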

Other observations

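By group mean, 9 of the 29 tested genes were brightest in BAP transition cambium, 7 in BAP cambium, 1 in untreated transition cambium, 0 in untreated cambium, 2 in ARR5::GFP cells, 1 in BAP procambium and 9 in untreated procambium. These are ranks of means within each gene, and neighbouring groups in such an order were mostly not tested against each other. Both untreated procambium arrays were the brightest of all 18 for IQD26, TRM26 and IQD30, and the dimmest for KICP-02.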
